A study of Mus musculus with 4 samples.

Results

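The genes described are 10 markers of blood vessels: Cldn5, Flt1 and Igfbp7 of endothelial cells, Rgs5, Kcnj8 and Pdgfrb of pericytes, Acta2 and Myl9 of contractile mural cells, and Sparc and Bgn of the vessel's matrix. They were taken as a list of named genes and looked up, by Ensembl gene identifier, in a table of isoform counts from single cells of the mouse retina. Of the 10, 8 had at least 1 isoform in the table, among 13452 Ensembl genes that did, and these 8 held 7100 counts. Cldn5 and Pdgfrb had no row in the table used here.

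Retinal vessels are tubes of endothelial cells wrapped by pericytes on capillaries and by smooth muscle cells on arterioles. Endothelial cells are joined by tight junctions, respond to vascular endothelial growth factor and form the inner blood-retina barrier, whereas pericytes and smooth muscle cells regulate the vessel's calibre through potassium channels and an actin and myosin apparatus. Müller glia, the main glia of the retina, span its depth and send processes onto the vessels.

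Retinas of wild-type male mice of the C57BL6/J strain were dissociated with papain, and the 10x Genomics cDNA of single cells was sequenced as long reads on nanopore flow cells. The 4 libraries were all wild type and untreated apart from cell enrichment. There were 2 libraries without enrichment, 1 at postnatal day 40 and 1 whose age the labels do not give. The third library had CD73 enrichment at postnatal week 8, for which the protocol describes magnetic depletion of CD73-positive photoreceptors, and the fourth had CD90.2 enrichment at postnatal month 4, by magnetic selection of CD90.2-positive neurons. For both, the design text of the series gives fluorescence-activated sorting instead. Neither label names vascular cells, and the vascular content of each library was not measured.

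The counts are given in 6 columns, 1 per cell class, with no library named: AC, BC, Cone, MG, Rod and RGC. These were read as amacrine cells, bipolar cells, cones, Müller glia, rods and retinal ganglion cells. No column is named for endothelial cells, pericytes or smooth muscle. A column is therefore 1 pooled sample, differences between columns have no replicate check, and no test between classes was made. Column totals ranged from 3509890 counts for ganglion cells and 6133094 for Müller glia to 55437340 for rods. Levels are counts scaled to a column total of 1000000 (CPM) with exact Poisson 95% intervals. These cover counting error only, with each read taken as independent. Several reads may come from 1 molecule, in which case all intervals here, those of shares and ratios included, are too narrow. As a floor for a count of 0, 3 counts were used, which is 0.0622 CPM for the amacrine column, 0.411 for cones, 0.489 for Müller glia and 0.855 for ganglion cells. The exact interval of a 0 reaches higher, to 0.0765, 0.505, 0.601 and 1.05 CPM in the same columns. Fewer cells of a type in a column and less RNA per cell cannot be told apart in such sums.

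All 8 genes were highest in the Müller glia column. Of all 13393 genes with at least 10 counts, 19.4% were highest there. The Müller glia column held 4808 of the 7100 counts (67.7%), although it held 4.10% of all counts in the table. Summed over the 8 genes, Müller glia had 784 CPM (interval 762 to 806). Bipolar cells had 31.5 CPM (29.5 to 33.6) and amacrine cells 13.9 CPM (12.9 to 15.0), while rods were at 10.9 CPM (10.1 to 11.8), cones at 10.8 CPM (8.56 to 13.5) and ganglion cells at 6.27 CPM (3.93 to 9.49). The interval of cones overlapped those of amacrine cells, rods and ganglion cells, and that of Müller glia lay far above the rest.

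**Figure D1:**
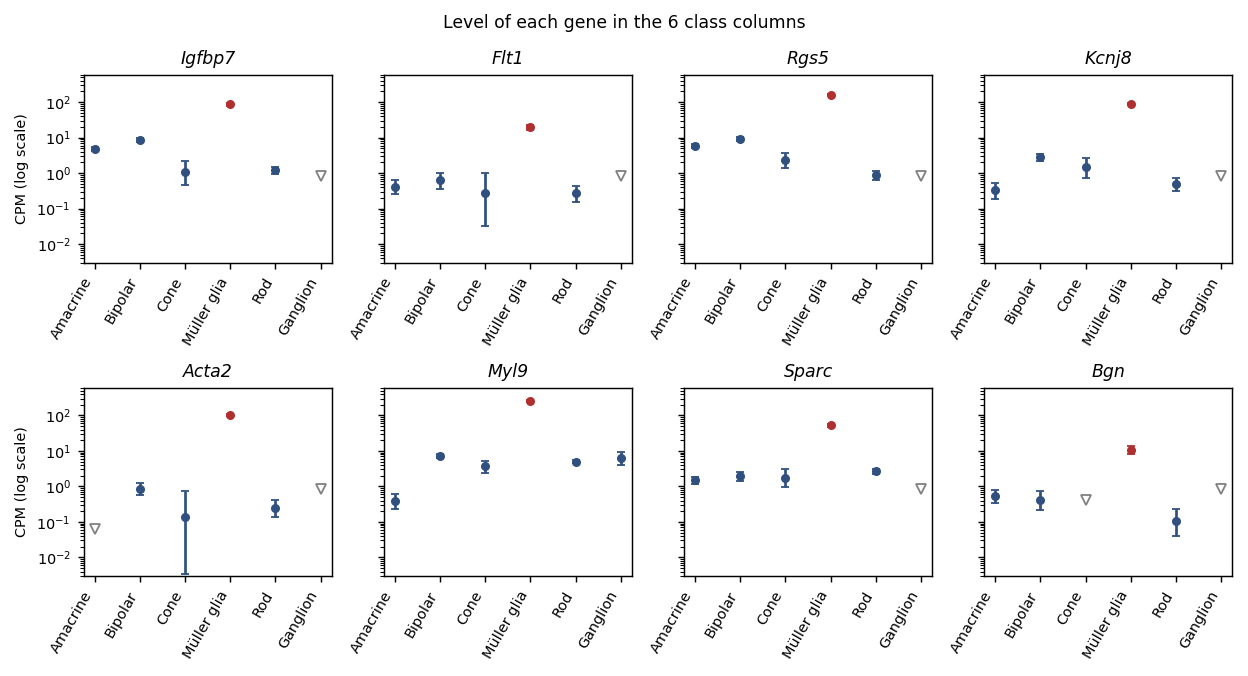
Level of each of the 8 genes in the 6 columns, in CPM on a log axis, with exact Poisson 95% intervals for counting error; open triangles mark columns with 0 counts at the level of 3 counts. In every panel the Müller glia point (red) is the highest, from 10.8 CPM for Bgn to 259 CPM for Myl9, and the ganglion cell column has counts for Myl9 alone.

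Flt1 encodes VEGF receptor 1, which binds vascular endothelial growth factor on endothelial cells and also exists as a secreted, soluble form that captures the growth factor. The gene (ENSMUSG00000029648.13) lies on the minus strand at chr5:147561604-147726011 of build GRCm38. The deposited table holds 3 isoforms of it. The first, ENSMUST00000110529.5, is the annotated soluble form of the receptor, whose 13 exons are read through the end of exon 13 into the following intron. The shared end of exon 13 and the tail that the soluble form adds are shown because they set this isoform apart from the full-length receptor. They lie at chr5:147639130-147639254, minus strand, from GENCODE M21 transcripts, with the last 30 bases shared with the full-length transcript in lower case and the 95 bases unique to the soluble coding sequence, stop codon included, in capitals.
Flt1 exon 13 and soluble tail: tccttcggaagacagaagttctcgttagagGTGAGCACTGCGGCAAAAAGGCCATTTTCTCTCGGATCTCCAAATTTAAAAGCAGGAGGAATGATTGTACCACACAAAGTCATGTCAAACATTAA

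Flt1 had 120 counts in Müller glia (19.6 CPM, interval 16.2 to 23.4), 20 in amacrine cells (0.415 CPM), 18 in bipolar cells (0.620 CPM), 15 in rods (0.271 CPM), 2 in cones (0.274 CPM) and 0 in ganglion cells. The level in Müller glia was 31.5 times that in bipolar cells, the next column (interval of the ratio 19.1 to 55.0). Among the other 5 columns only bipolar cells and rods differed beyond counting error.

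The Flt1 counts fell mostly on shortened models. The soluble form held 62 of 175 counts (35.4%, exact binomial 95% interval 28.4 to 43.0%). Its deposited model ends 3955 bases short of the annotated 3′ end but covers the soluble stop codon shown above. An unannotated model of 4 exons held 104 counts (59.4%, interval 51.8 to 66.8%). It runs from the annotated first exon to exon 4 and goes on 824 bases into the next intron. The third model, also unannotated, held 9 counts (5.14%) and covers exons 21 to 24 of the full-length transcript, with 164 bases added before exon 21 and 880 bases after exon 24. The full-length transcript Flt1-202, of 30 exons and 6895 bases, had no row in the table used here, and 0 of the 3 models hold both its first and its last exon. No Flt1 model in the table covers the whole receptor. The part of read length in this was not tested.

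The share of the Flt1 models differed between columns. In Müller glia the 4-exon model held 69 of 120 counts (57.5%, interval 48.1 to 66.5%) and the soluble form 45 (37.5%, interval 28.8 to 46.8%). In amacrine cells the 4-exon model held 19 of 20 counts (95%, interval 75.1 to 99.9%) and the soluble form 1. The intervals of the 2 columns did not overlap for either model. The difference rests on 20 counts in amacrine cells and 1 pooled sample per column. In bipolar cells, with 18 counts, the soluble form had 11 and the 4-exon model 5. The rod counts were 3 and 11 for the same models.

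Igfbp7, a secreted protein that binds insulin-like growth factors and is laid down in vessel basement membrane, had 1 isoform, ENSMUST00000046746.9. The gene (ENSMUSG00000036256.13) lies at chr5:77349240-77408041 on the minus strand. It had 529 counts in Müller glia (86.3 CPM, interval 79.1 to 93.9), 251 in bipolar cells (8.65 CPM), 234 in amacrine cells (4.85 CPM), 67 in rods (1.21 CPM), 8 in cones (1.09 CPM) and 0 in ganglion cells. Bipolar cells lay above amacrine cells and amacrine cells above rods beyond counting error, whereas rods and cones did not differ. Of the 8 genes, Igfbp7 had the smallest ratio of Müller glia to the next column, 9.97 (interval 8.56 to 11.6). Its model has the annotated 5 exons and introns but starts 321 bases inside the annotated first exon and does not reach the start codon. The model also shares 77 bases with models of a gene on the other strand (ENSMUSG00000029250.5), and whether the counting used strand is not given in the sources used here.

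Cldn5 encodes the main claudin of endothelial tight junctions and is a standard endothelial marker. Its annotation is 1 transcript of 1 exon and 1416 bases at chr16:18776847-18778262. Of 1331 coding genes whose annotated transcripts all have 1 exon, 193 (14.5%) had any row in the table and 2 (0.150%) had a row under an annotated transcript. Of 20620 coding genes with 2 or more exons, 62.5% had a row. Most coding genes without an intron lacked a row, as Cldn5 did. These shares were not restricted to genes expressed in the retina, and the part of exon number in the missing row was not tested. Pdgfrb, the receptor through which endothelial cells recruit pericytes, has up to 24 exons and a longest coding transcript of 5423 bases. It was the other gene without a row, so neither gene's level was analysed here.

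Rgs5, a regulator of G-protein signalling that is widely used as a pericyte marker, had 1006 counts in Müller glia (164 CPM, interval 154 to 174). It had 263 in bipolar cells (9.07 CPM), 285 in amacrine cells (5.91 CPM), 17 in cones (2.33 CPM), 49 in rods (0.884 CPM) and 0 in ganglion cells. This was the most graded of the patterns: each column down to rods lay above the next beyond counting error. The Müller glia level was 18.1 times that in bipolar cells (interval 15.8 to 20.8). All counts were in ENSMUST00000027997.8, with the 5 annotated exons at chr1:169655501-169695813, plus strand (ENSMUSG00000026678.10). The deposited model covers the coding sequence and ends 2273 bases before the annotated 3′ end.

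Kcnj8 encodes the pore subunit Kir6.1 of the ATP-sensitive potassium channel of pericytes and smooth muscle. It had 545 counts in Müller glia (88.9 CPM, interval 81.6 to 96.6), 82 in bipolar cells (2.83 CPM), 11 in cones (1.51 CPM), 27 in rods (0.487 CPM), 16 in amacrine cells (0.332 CPM) and 0 in ganglion cells. Müller glia exceeded bipolar cells 31.4-fold (interval 24.9 to 40.2). Bipolar cells and cones did not differ beyond counting error, nor did rods and amacrine cells. Its only isoform was ENSMUST00000203945.2, of 3 exons, at chr6:142564837-142571614 on the minus strand (ENSMUSG00000030247.9). Abcc9, which encodes the regulatory subunit that pairs with this pore, had 28 counts in Müller glia (4.57 CPM) and 1 in bipolar cells (0.0345 CPM). It had 0 counts in each of the other 4 columns, with intervals of up to 0.505 CPM in cones and 1.05 CPM in ganglion cells.

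Acta2 and Myl9 encode smooth muscle α-actin and a regulatory light chain of smooth muscle myosin. Acta2 had 627 counts in Müller glia (102 CPM, interval 94.4 to 111), 25 in bipolar cells (0.862 CPM), 14 in rods (0.253 CPM), 1 in cones (0.137 CPM), and 0 in both amacrine and ganglion cells. It had the highest share in Müller glia of the 8 genes and exceeded bipolar cells 119-fold (interval 79.6 to 185). The amacrine column, with an interval of up to 0.0765 CPM, bounds the gene there far below its bipolar level.

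Myl9 had 1589 counts in Müller glia (259 CPM, interval 247 to 272), 207 in bipolar cells (7.14 CPM), 22 in ganglion cells (6.27 CPM), 279 in rods (5.03 CPM), 27 in cones (3.70 CPM) and 19 in amacrine cells (0.394 CPM). Müller glia exceeded bipolar cells 36.3-fold (interval 31.4 to 42.2). It was the only gene of the 8 with counts in all 6 columns. Bipolar cells lay above rods and cones beyond counting error. Ganglion cells, with 22 counts, did not differ from bipolar cells, rods or cones, rods did not differ from cones, and amacrine cells lay below all of these. Both contractile genes were therefore at their lowest or undetected in amacrine cells. Each had 1 annotated isoform, with the annotated introns and the whole coding sequence: ENSMUST00000039631.9 for Acta2 (ENSMUSG00000035783.9, chr19:34241090-34255590, minus strand, 9 exons) and ENSMUST00000088552.6 for Myl9 (ENSMUSG00000067818.6, chr2:156775420-156781658, plus strand, 4 exons).

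Smooth muscle genes are known for CArG boxes, sites bound by serum response factor, close to their start. Promoters of the 8 genes, 250 bases before to 50 after the RefSeq start, were all in the RefSeq table of build GRCm38.p6. The strict motif, CC then 6 bases of A or T then GG on either strand, was found in 1 of the 8 (Myl9) and in 1.63% of all 32851 promoters. With at most 1 G or C among the middle 6 bases, a form chosen after the promoters had been seen, it was found in Acta2 and Myl9 and in 9.98% of all promoters. The matches are shown because they are in the 2 contractile genes of the list and in no other of the 8. Each line gives 30 bases with the 10-base match in capitals, from Myl9 at chr2:156775293-156775322 and chr2:156775355-156775384 (plus strand), and from Acta2 at chr19:34255438-34255467 and chr19:34255388-34255417 (minus strand).
Myl9 CArG 1: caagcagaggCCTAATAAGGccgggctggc
Myl9 CArG 2: cattcttctgCCTTGTAAGGccgggcggcc
Acta2 CArG 1: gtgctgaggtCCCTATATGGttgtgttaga
Acta2 CArG 2: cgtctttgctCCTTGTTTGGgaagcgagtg
The first Myl9 match has no G or C in its middle, and the other 3 have 1 each. They begin 161 and 99 bases before the RefSeq start of Myl9 and 84 and 34 bases before that of Acta2. These starts differ from the GENCODE gene ends given above: the RefSeq start lies 44 bases inside the GENCODE gene for Myl9 and 217 bases inside it for Acta2, so both Acta2 matches fall within the GENCODE gene span. A match describes these letters and not a bound site. The ETS core GGAA, known from endothelial promoters, was in 8 of the 8 but also in 96.0% of all promoters, and TATAAA was in 1 (Flt1) and in 13.6% of all. The overlap of these motifs with the CArG boxes was not counted.

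Sparc encodes osteonectin, a secreted matrix protein that binds collagen and calcium. It had 326 counts in Müller glia (53.2 CPM, interval 47.5 to 59.2), 149 in rods (2.69 CPM), 56 in bipolar cells (1.93 CPM), 13 in cones (1.78 CPM), 71 in amacrine cells (1.47 CPM) and 0 in ganglion cells. It was the only gene of the 8 with rods as the next column, 19.8-fold below Müller glia (interval 16.2 to 24.2). Rods lay above bipolar cells by a narrow margin, and no 2 of bipolar cells, cones and amacrine cells differed.

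All 615 Sparc counts were in 1 unannotated model of 9 exons and 2050 bases at chr11:55394500-55419900, minus strand, within the gene's span of chr11:55394500-55423183 (ENSMUSG00000018593.13). The model matches the annotated transcript Sparc-201 except that it starts inside exon 1 and leaves out exon 2 of 10. The missing exon has 70 bases at chr11:55409928-55409997, of which 13 are untranslated and 57 are coding. The annotated start codon is in it. All 6 coding transcripts of Sparc in GENCODE M21 contain this exon, and the intron that skips it is in 0 of the 9 annotated Sparc transcripts, none of which had a row in the table used here. The coding part of the exon, at chr11:55409928-55409984, is shown because every deposited Sparc count lies on a model without it, with the start codon in capitals.
Sparc coding part of the skipped exon: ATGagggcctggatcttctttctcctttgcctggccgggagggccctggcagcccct
Whether reads with this exon were assigned to the skipping model was not tested, since reads were not analysed here.

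Bgn encodes biglycan, a small proteoglycan of the matrix around vessels. It was the least counted of the 8, with 66 counts in Müller glia (10.8 CPM, interval 8.32 to 13.7), 26 in amacrine cells (0.539 CPM), 12 in bipolar cells (0.414 CPM), 6 in rods (0.108 CPM) and 0 in both cones and ganglion cells. It was the only gene of the 8 with amacrine cells as the next column, which did not differ from bipolar cells beyond counting error, and the ratio to amacrine cells was 20.0 (interval 12.5 to 32.8). Its isoform was ENSMUST00000033741.14, with the 8 annotated exons, at chrX:73483602-73495933 on the plus strand (ENSMUSG00000031375.17).

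**Figure D2:**
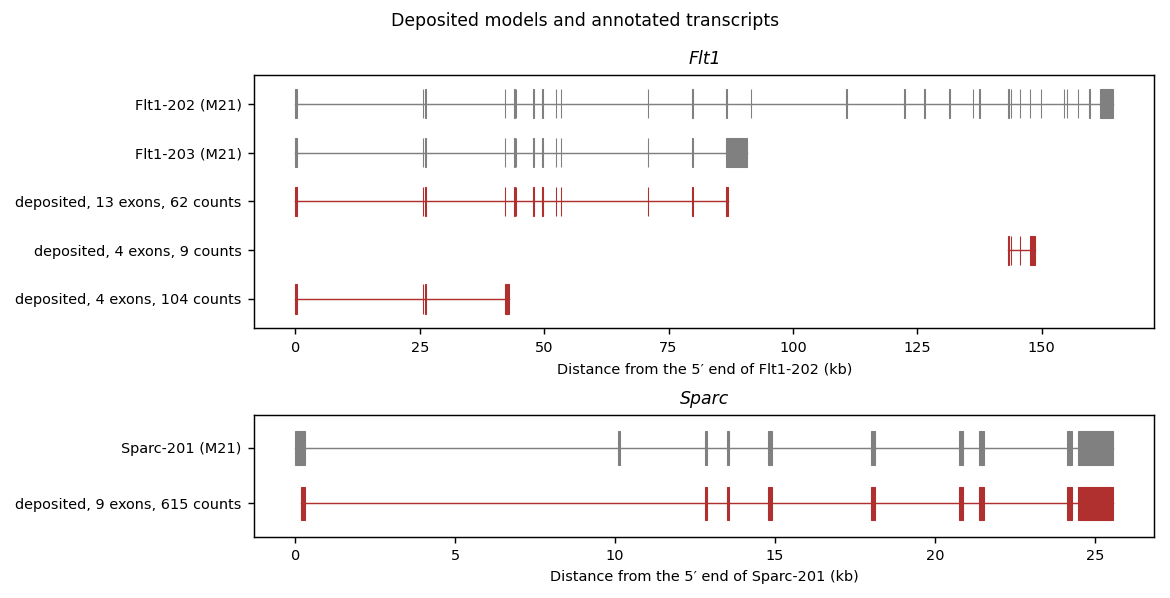
Exons (boxes) and introns (lines) of the deposited Flt1 and Sparc models (red) and of annotated transcripts (grey), by distance in kilobases from the annotated 5′ end, with the counts of each model. The 104-count Flt1 model stops in the intron after exon 4, no Flt1 model spans the 30-exon transcript, and the Sparc model lacks exon 2.

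Across the 8 genes there were 10 isoforms, 3 of them unannotated, and 7 genes had a single isoform. A single isoform was listed for 31.9% of all Ensembl genes. The unannotated models, of Flt1 and Sparc alone, held 728 of the 7100 counts, 10.3% (interval 9.56 to 11%), against 5.58% over all Ensembl genes. Of these, 615 were Sparc. Without Sparc the share was 113 of 6485 counts, 1.74% (interval 1.44 to 2.09%), which is below the value for all genes, so the direction rests on that gene.

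To compare the genes with each other irrespective of level, each gene's CPM was summed over the 6 columns and the share in Müller glia taken. That share was 98.8% for Acta2, 94.5% for Kcnj8, 92.5% for Flt1, 92.0% for Myl9, 91.0% for Bgn, 90.0% for Rgs5, 87.1% for Sparc and 84.5% for Igfbp7. The median was 91.5%, and over all genes with at least 10 counts it was 11.3%. All 8 had at least 80% of the summed CPM in Müller glia, as did 5.57% of all genes, and all 8 were at least 4-fold above the next column, as were 7.24%. The ganglion cell column had 0 counts for 7 of the 8, but 45.0% of all genes with at least 10 counts also had 0 there, in the shallowest column.

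**Figure D3:**
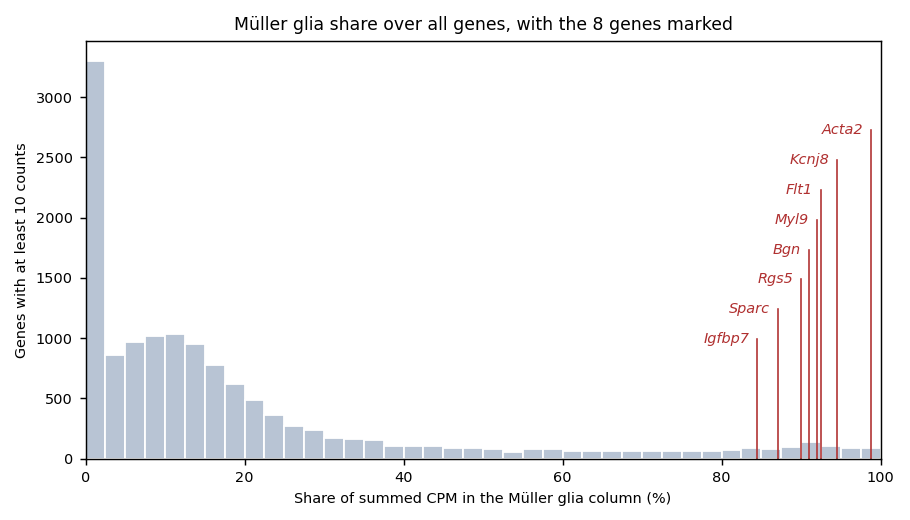
Histogram of the share of summed CPM in the Müller glia column (%, x axis) over the genes with at least 10 counts (number of genes, y axis), with red lines at the 8 genes; the heights of the lines carry no value. The 8 lie between 84.5 and 98.8%, and the median of all genes is 11.3%. At 80% or more are 5.57% of all genes, with a small second peak of 134 genes from 90 to 92.5%.

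The level outside the Müller glia column was also expressed as a percentage of the level in it. In amacrine cells the level was 5.62% of that in Müller glia for Igfbp7, 5.01% for Bgn, 3.60% for Rgs5, 2.77% for Sparc and 2.12% for Flt1. For Kcnj8 it was 0.373% and for Myl9 0.152%, and Acta2 had no count. In amacrine cells the channel and contractile genes thus lay below the other 5 on this scale, with intervals that did not overlap. This grouping was not planned, and it parts Kcnj8 from Rgs5, the other pericyte marker with a row. In bipolar cells, cones and rods Kcnj8, Myl9 and Acta2 were not set apart as a group in this way: in cones Kcnj8 was at 1.69% and Myl9 at 1.43%, against 1.27% for Igfbp7 and 1.40% for Flt1. For comparison, the 6 Müller glia markers Glul, Rlbp1, Aqp4, Slc1a3, Apoe and Dkk3 summed, with Apoe the largest part, to 2.22% of their Müller glia level in amacrine cells. Singly they ranged from 1.16% (Aqp4) to 119% (Dkk3). The 18 endothelial markers, of which 14 had a row, summed to 5.16%.

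Other vascular genes were mixed in amacrine cells. Of the 14 endothelial genes with a row, 6 had at most 1 amacrine count (Pecam1, Esam, Eng, Ly6c1, Slco1a4 and Podxl). The other 8 had from 5 (Kdr) to 1774 counts (Egfl7), among them Slc2a1 with 623, Ramp2 with 601 and Itm2a with 111. Of the 11 pericyte and smooth muscle genes with a row, 6 had at most 1 amacrine count (Anpep, Abcc9, Des, Tagln, Higd1b and Mylk), and the other 5 had from 7 (Notch3) to 5927 counts (Cox4i2), with Vtn at 777, Tpm2 at 310 and Ndufa4l2 at 157. Some of these genes had few counts over all columns, with 12 for Anpep, 29 for Abcc9 and 52 for Eng. The share of all genes with at most 1 amacrine count was not computed, so no excess or lack can be read from these numbers.

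In bipolar cells all 8 genes were detected, at 10.0% of the Müller glia level for Igfbp7, 5.53% for Rgs5, 3.84% for Bgn, 3.63% for Sparc, 3.18% for Kcnj8, 3.17% for Flt1, 2.75% for Myl9 and 0.843% for Acta2. The Müller glia markers summed to 0.883% in bipolar cells, a sum carried by Apoe (0.743%). Singly the other Müller glia markers ranged from 1.46% (Slc1a3) to 3.75% (Dkk3), within the range of the 8 genes. The endothelial markers summed to 12.7%, and those with Müller glia counts ranged singly from 4.23% (Kdr) to 49.5% (Esam). Esam, an endothelial adhesion molecule, reached 39.3 CPM in bipolar cells against 79.4 CPM in Müller glia, while Ly6c1 was at 5.99% and Emcn at 7.39% of their Müller glia levels. In rods the 8 ranged from 0.247% (Acta2) to 5.06% (Sparc). The Müller glia markers summed to 2.93% in rods and ranged singly from 1.47% (Aqp4) to 7.33% (Dkk3). The part that RNA from other cells had in these counts was not tested.

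**Figure D4:**
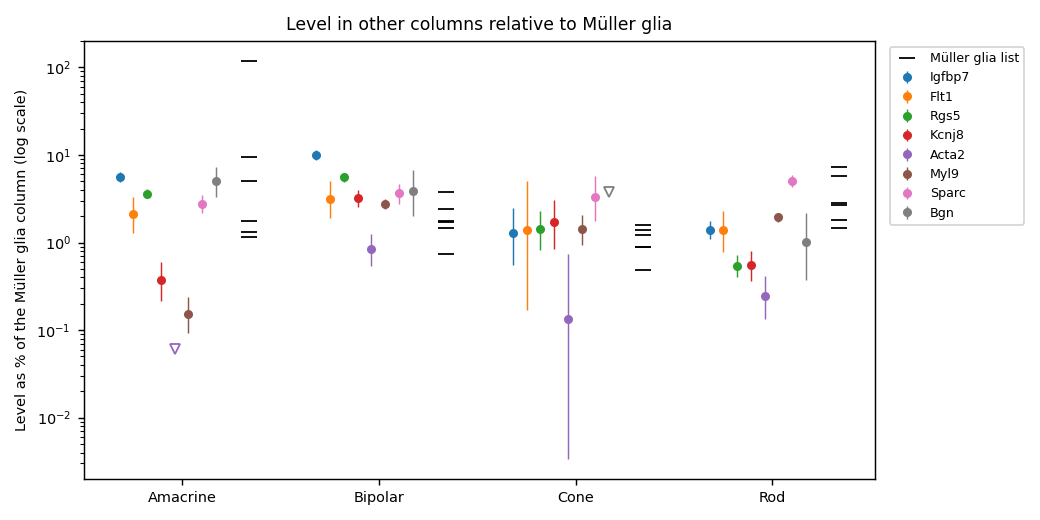
Level of the 8 genes in amacrine cells, bipolar cells, cones and rods as a percentage of their level in Müller glia (log axis), with exact 95% intervals for counting error that take the Müller glia level as fixed; black dashes are the 6 Müller glia markers and open triangles mark 0 counts, drawn at 3 counts. In amacrine cells Kcnj8, Myl9 and Acta2 lie below 0.4% and the other 5 genes between 2.12 and 5.62%, while in bipolar cells the 7 genes other than Acta2 lie between 2.75 and 10.0%.

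The Müller glia column was checked against markers of the cells it is named for and of cells without a column. Of the 6 Müller glia markers, 5 were highest in it and the list summed to 44123 CPM there. Dkk3 was the exception, with 58.1 CPM in the amacrine column against 48.8 CPM here. Markers of other cells were also highest in this column: 6 of 6 for microglia (1238 CPM in sum), 5 of 5 for red blood cells (12355 CPM), 5 of 6 for pigment epithelium (9480 CPM) and 4 of the 4 with a row for astrocytes (2207 CPM), beside 19.4% of all genes. Of the microglia list, Csf1r had 4.89 CPM in Müller glia and 4.87 CPM in rods, a difference within counting error. Most of the astrocyte sum was Aldoc (2110 CPM), with a share of 41.2% and 459 to 789 CPM in the other columns. Most of the pigment epithelium sum was Ttr (8443 CPM), and Best1, the exception of that list, had 0 counts in Müller glia. The 4 lists were concentrated in this column to differing degrees. At least 4-fold over the next column were 0 of 6 for microglia, 1 of 5 for red blood cells, 5 of 6 for pigment epithelium and 3 of 4 for astrocytes, beside 7.24% of all genes. In rods the microglia list summed to 569 CPM and the red blood cell list to 2786 CPM. The 6 rod markers summed to 2075 CPM in it and to 30237 CPM in rods. The table gives no column for vascular cells or for these other cells. Transcripts of Müller glia and of any such cells placed in the Müller glia column therefore cannot be told apart. The part of each in the levels above was not tested.

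Other vascular genes were examined in 4 lists, of endothelial genes, pericyte and smooth muscle genes, vascular matrix and vascular signalling. Of 63 genes, 46 had a row and 45 at least 10 counts, and of these 33 were highest in Müller glia. At least 80% of the summed CPM was in Müller glia for 21 of the 45, and 25 were at least 4-fold above the next column. These counts stand beside backgrounds of 19.4%, 5.57% and 7.24%.

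Among 14 endothelial genes with a row, 12 were highest in Müller glia, with a median share of 83.3%. The most counted were Slc2a1, the glucose transporter of the barrier (401 CPM in Müller glia, 70.9% share), Egfl7, a secreted endothelial factor (122 CPM, 60.3%), and Itm2a (281 CPM, 86.2%). Podxl was highest in cones. Plvap, a marker of fenestrated endothelium, had 58 counts, with 29 in amacrine cells (0.601 CPM), 26 in rods (0.469 CPM) and 3 in bipolar cells. It had 0 counts in Müller glia, with an interval of up to 0.601 CPM that overlapped those of amacrine cells and rods. A lower level in Müller glia than in those columns therefore cannot be read from the 0. Cdh5, Tek, Tie1 and Vwf had no row.

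Among 11 pericyte and smooth muscle genes with a row, 9 were highest in Müller glia, with a median share of 83.6%. Tagln, an actin-binding protein of smooth muscle, had 162 CPM and a share of 98.4%, Des, the muscle intermediate filament, 19.2 CPM and 95.1%, and Higd1b, a pericyte marker, 13.2 CPM and 95.2%. The most counted were Vtn, Cox4i2 (2734 CPM, 83.6%) and Ndufa4l2 (240 CPM, 83.2%). Vtn was highest in rods (2570 CPM, against 1149 CPM in Müller glia), and Mylk, the kinase of the light chain that Myl9 encodes, was highest in cones at 6.43 CPM with 1 count in Müller glia.

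The matrix and signalling genes were less concentrated. Of 7 matrix genes with a row, 3 were highest in Müller glia and the median share was 34.1%. Col4a1 was highest in bipolar cells, with 22 counts there and 2 in Müller glia. Lamb1 was highest in amacrine cells (36 counts) and Lamc1 in bipolar cells (6 counts), both with 0 counts in Müller glia. For each of these genes the Müller glia interval overlapped that of the highest column, so a lower level in Müller glia cannot be read. Timp3, a metalloproteinase inhibitor of basement membranes, had 74.7 CPM and a share of 93.4%. Sparcl1, a relative of Sparc, had 25.6 CPM in Müller glia and 27.1 CPM in ganglion cells, and Fn1 had 2.28 CPM and a share of 52.1%. Of 13 signalling genes with at least 10 counts, 9 were highest in Müller glia with a median share of 46.9%. At least 80% of the summed CPM was in Müller glia for 4 of the 13, beside 5.57% of all genes. These were Dll4 (96.3%), Angpt2 (92.7%), Ednra (86.3%) and Tgfbr2 (83.6%), each with 12 to 37 counts over all columns. At least 4-fold over the next column were 5 of the 13, beside 7.24% of all genes. Ndp, the ligand norrin that guides retinal vessel growth, had 40.6 CPM in Müller glia and 34.8 CPM in ganglion cells. Tspan12, a co-factor of its receptor, had 19.7 CPM in ganglion cells and 13.9 CPM in Müller glia, and Edn1, the vasoconstrictor endothelin, had nearly equal levels in the amacrine (9.49 CPM) and Müller glia (9.29 CPM) columns. Vegfa, the main ligand of the receptor that Flt1 encodes, was highest in bipolar cells (3.55 CPM), with 1.47 CPM in Müller glia.

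**Figure D5:**
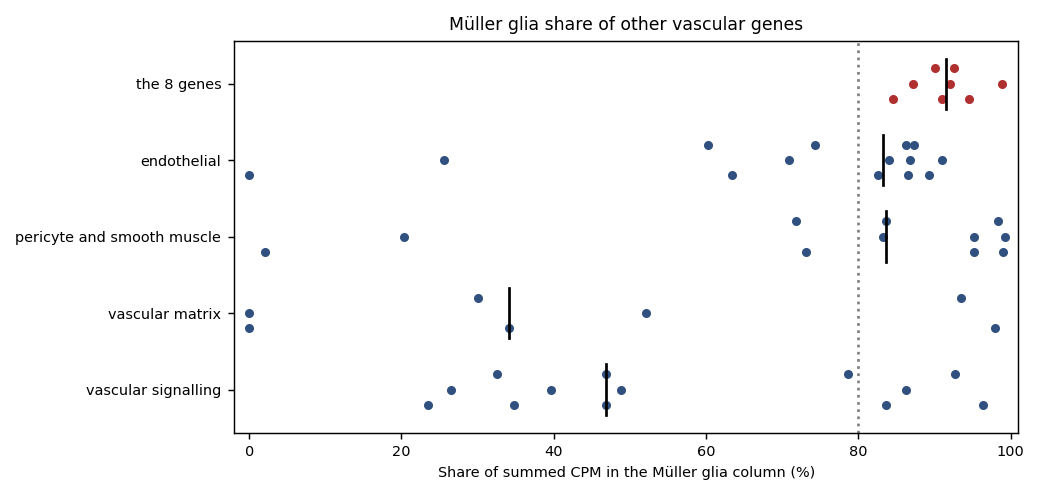
Share of summed CPM in the Müller glia column (%) for the 8 genes (red) and for each gene with at least 10 counts in 4 lists of vascular genes (blue); black bars are medians, the dotted line is 80%, and the vertical scatter within a row carries no value. Medians are 91.5% for the 8 genes, 83.3% for endothelial, 83.6% for pericyte and smooth muscle, 34.1% for matrix and 46.9% for signalling genes.

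Transcript length was compared between the vascular genes with and without a row. Over the 10 genes and the 4 lists, 54 genes with a row had a median longest coding transcript of 3144 bases, and the 19 without one a median of 5348 bases. The lengths overlapped: among genes without a row Cldn5 had 1416, Dcn 1758, Cnn1 2381 and Pdgfb 2944 bases, and among genes with a row Fn1 had 8315, Tgfbr2 8092 and Notch3 8016. The part of transcript length in the missing rows was not tested.

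Genes with the most similar distribution over the 6 columns were found among 9860 genes with at least 100 counts, by the sum of absolute differences in shares (percentage points). To the mean of the 8 genes, which had 91.3% in Müller glia, 3.68% in bipolar cells and 2.18% in amacrine cells, the nearest were Hif3a (0.880), Eva1b (1.85), Col9a2 (1.87), Tmem140 (2.15) and Rarres2 (2.17). For single genes, Acta2 was nearest to Tagln (0.949), Flt1 to Slco1c1, a thyroid hormone transporter of barrier endothelium (0.988), and Kcnj8 to Mgp, a matrix protein of vessel walls (1.16). Bgn was nearest to Emp2 (1.59), Sparc to Cd82 (2.33), Rgs5 to Prss23 (2.98), Myl9 to Vim (4.45) and Igfbp7 to Naprt (5.24). Vim, an intermediate filament of Müller glia as well as of vessels, had 2571 CPM in Müller glia. The 6 columns share their libraries, and likeness over 6 points is a description.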

How the data were processed

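The authors deposited 1 table of whole-number read counts per isoform in 6 cell-class columns and 1 annotation of transcript models. The counts, recorded here under the unit "other" because a column pools libraries, were used as deposited. FLAIR is named as the source of the models, per the file contents, and genome mm10 per the submitters' processing notes. Aligner, molecule collapsing, cell calling, doublet treatment and the libraries behind each column are not given in the sources used here. Per-sample columns left unused numbered 0. The columns carry no replicate, so the planned test across libraries could not be made.

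Isoform counts were summed per Ensembl gene and scaled to 1000000 per column (Python 3.11.15, pandas 2.3.3, scipy 1.17.1). Shares and ratios used genes with at least 10 counts, and an isoform share needed 20 counts of the gene in a column, or is given as counts. Symbols, exons and start codons came from GENCODE M21 (13448 of 13452 genes matched) and promoters from RefSeq. Intervals are Poisson for levels and Clopper-Pearson for shares and ratios, at 95%. The rules were tested on simulated data.

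Named genes were all 10 on the list, each isoform with at least 10 counts or the 3 most counted, the 3 most counted genes of each list, and the 5 genes nearest to the mean and the 1 nearest to each gene; further genes of the lists were named after their values were seen, as was the third Flt1 model. The genes and lists were chosen with earlier results of these data known. Alternatives were other scalings, thresholds, isoform sets and thinned depths.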

Additional observations from a re-analysis of the deposited data

How the results depend on the processing

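The 75 alternatives left 53 values within their error or, for counts of genes, within 1.5 times, and moved 22. All 8 genes stayed highest in Müller glia, with at least 80% of summed CPM and at least 4-fold over the next column, under trimmed mean of M-values scaling, median of ratios scaling, and in each of 20 thinnings of all columns to 3509890 counts. At 95% in place of 80% the count was 1 gene (Acta2), and at 10-fold it was 7. For the Müller glia column the trimmed mean factor was 0.930, relative to its total over Ensembl genes. The median of ratios factor was 0.790, relative to its total over all isoforms. With depths rescaled to the sum of all counts, the summed level there became 862 CPM and 993 CPM. Single shares in Müller glia lay between 84.5 and 99.0% over all alternatives. Without Myl9, the most counted gene, Müller glia summed to 525 CPM, bipolar cells to 24.4, cones to 7.12, rods to 5.90 and ganglion cells, whose counts were all of Myl9, to 0. By isoforms in place of counts, the unannotated share was 30%, and without Sparc, an alternative chosen after seeing the data, it was 1.74%. With annotated isoforms only, Sparc gave no value and the Flt1 share in Müller glia was 91.0%. No paired analysis was possible because no column names a library, and for that reason no library could be left out. Depth limits the ganglion cell column most, where 3 counts are 0.855 CPM.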
